A study of Mus musculus with 14 samples.

Results

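The genes described here encode the nuclear subunits of the mitochondrial respiratory chain and ATP synthase, measured by RNA sequencing in mouse BFU-E, the burst-forming unit-erythroid, an early progenitor of red cells kept here in culture. They were chosen by gene name alone, as names of the families Nduf, Sdh, Uqcr, Cox4 to Cox8 and Atp5 together with Cyc1 and Cycs, written without a hyphen and listed in both sets of libraries. The rule found 83 genes among the 22281 names used in both sets. Of these, 35 belong to complex I, 4 to complex II, 9 to complex III, 18 to complex IV and 16 to complex V, and 1 is cytochrome c. Ndufa4 was counted with complex IV, where structural work places its protein despite its name, and Cyc1, which is cytochrome c1, with complex III. The rule uses no measured value, so that levels and differences of these genes can be compared and tested gene by gene. It was set with earlier results of these data known, so no p-value over the members as a group is given.

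The 12 RNA libraries form 4 groups of 3, all made from fetal liver BFU-E of C57BL/6 mice grown in StemSpan SFEM II, a serum-free medium. Compound OB was given at 100 µM and set against its own DMSO solvent control (OB DMSO), and compound PD was given at 3 nM and set against another (PD DMSO). The sources used here do not give the culture time, the age of the embryos or whether replicates came from separate cultures, so p-values measure the spread between these libraries, which may be technical. Values are FPKM (fragments scaled by gene length and by the mapped total of the library) as deposited by the authors, so levels are already per gene length, and the sequencing depth behind them is unknown.

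The respiratory chain passes electrons from NADH (complex I) or succinate (complex II) through ubiquinone to complex III, then by cytochrome c to complex IV, which reduces oxygen. Complexes I, III and IV pump protons across the inner mitochondrial membrane, and complex V, the ATP synthase, uses the gradient to make ATP. Mitochondrial DNA encodes a few core subunits of complexes I, III, IV and V, and nuclear genes encode all the others. Red cell precursors carry many mitochondria, where part of heme is made, and clear them as they mature.

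The labelled cell type was checked against its markers. Gata1, the erythroid master regulator, measured 149.6 to 175 FPKM with compound OB and 132 to 185 FPKM in OB DMSO, and 132 to 135 FPKM with compound PD and 134 to 142 FPKM in PD DMSO. Summed over the erythroid markers, the levels were 3353 to 3716 FPKM with compound OB and 3406 to 3683 FPKM in OB DMSO. In the PD set the sum was 2315 to 3364 FPKM with compound PD and 3264 to 6154 FPKM in PD DMSO, where replicate 1 held the highest value. There 13 of 15 erythroid markers were lower with the compound, with a median log2 fold change of −0.39 and 0 called. Markers of neutrophils and their precursors summed to 30300 to 37932 FPKM with compound PD and 11835 to 17819 FPKM in PD DMSO, with 15 of 15 genes higher with the compound and 1 called at an adjusted p under 0.05 (limma). In the OB set the same sum was 168 to 495 FPKM with compound OB and 148 to 591 FPKM in OB DMSO. Megakaryocyte markers summed to 4419 to 7832 FPKM with compound PD and 2400 to 4773 FPKM in PD DMSO, with 10 of 10 higher. Several libraries stood apart. OB DMSO replicate 2 held the ribosomal RNA precursor Rn45s at 12380 FPKM, against 175 to 955 FPKM in the other 5 libraries of its set. In both OB groups replicate 1 held more neutrophil and megakaryocyte marker RNA. Its neutrophil sums were 495 FPKM with compound OB and 591 FPKM in OB DMSO, against 148 to 184 FPKM in replicates 2 and 3. Its megakaryocyte sums were 1033 and 1448 FPKM, against 504 to 661 FPKM. In the PD set DMSO replicate 1 stood apart, and compound PD replicate 1 held the lowest erythroid sum. Replicate 1 of both PD groups held the most megakaryocyte marker RNA, 7832 FPKM with compound PD and 4773 FPKM in PD DMSO. In replicates 2 and 3 these sums were 4419 to 4886 and 2400 to 2437 FPKM. Mast cell and basophil markers followed the same order, at 3402 and 1960 FPKM, against 1592 to 1616 and 942 to 994 FPKM. Neutrophil sums went the other way, with replicate 1 the lowest of each PD group. The members' median and calls are given with and without OB DMSO replicate 2 and PD DMSO replicate 1. Single genes and interval counts are given mostly with all libraries. In bulk RNA, fewer cells of a type and less RNA per cell cannot be told apart, and the part of these other cells in the values below was not tested.

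Promoter sequences were available for 68 of the 83 genes, as 73 windows of 300 bases (250 before and 50 after the start) from RefSeq on GRCm38.p6. They were searched on both strands for 3 short motifs, because nuclear respiratory genes are known for sites of the factors NRF1 and GABP and because the series also concerns the factor CREB, which binds the cAMP response element (CRE). The NRF1 motif (GCGCA, any base, GCGC) was found in 18 windows of 17 genes, 24.7% of the windows, against 10.7% of 10501 windows of genes tested in the fit of all libraries and 4.60% of all 32851 windows. The GABP letters CCGGAAG were found in 16 windows (21.9%, against 19.0% and 8.86%), and the full CRE letters TGACGTCA in 5 windows (6.85%, against 3.11% and 1.79%), those of Cycs, Ndufa10, Ndufa11, Ndufb2 and Uqcrfs1. In all, 34 windows of 33 genes held at least 1 of the motifs. A match is a description of the letters and not a site. The windows below show each motif in genes of cytochrome c, complex I and complex II, written 5′ to 3′ along the gene's strand, with the motifs in capitals.

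Cycs: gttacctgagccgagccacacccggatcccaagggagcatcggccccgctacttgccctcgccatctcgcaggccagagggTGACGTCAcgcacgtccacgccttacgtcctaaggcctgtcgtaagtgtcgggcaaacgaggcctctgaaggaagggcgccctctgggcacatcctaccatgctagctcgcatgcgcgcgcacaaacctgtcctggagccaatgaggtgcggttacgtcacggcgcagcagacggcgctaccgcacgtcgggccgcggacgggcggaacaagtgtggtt

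Ndufa11: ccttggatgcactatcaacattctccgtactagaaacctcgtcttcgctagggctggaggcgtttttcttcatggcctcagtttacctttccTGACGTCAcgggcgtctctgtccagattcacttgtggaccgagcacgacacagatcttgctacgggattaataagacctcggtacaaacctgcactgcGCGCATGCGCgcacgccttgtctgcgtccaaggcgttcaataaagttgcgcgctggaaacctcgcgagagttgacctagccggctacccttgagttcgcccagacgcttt

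Sdhd: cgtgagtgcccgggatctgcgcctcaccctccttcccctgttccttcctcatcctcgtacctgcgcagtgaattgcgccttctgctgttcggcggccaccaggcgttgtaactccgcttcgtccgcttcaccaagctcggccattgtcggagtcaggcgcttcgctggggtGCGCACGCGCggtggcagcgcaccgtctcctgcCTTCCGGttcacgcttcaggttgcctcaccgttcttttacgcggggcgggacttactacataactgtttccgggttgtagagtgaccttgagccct

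The Cycs window lies at chr6:50566520-50566819 on the minus strand and holds a CRE whose first base is 169 bases before the start. The Ndufa11 window, chr17:56717512-56717811 on the plus strand, holds a CRE from 158 and an NRF1 motif from 60 bases before the start. The Sdhd window, chr9:50603800-50604099 on the minus strand, holds an NRF1 motif from 79 and a GABP motif, read on the other strand, from 46 bases before the start. The motifs shown in capitals do not overlap each other.

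In DMSO, nearly all of the subunits were abundant transcripts, and the median level differed between the complexes. The median level over the genes of a complex was 523 FPKM for complex V, 398 for III, 184 for I and 176 for II in OB DMSO, and 270, 235, 103 and 121 FPKM for V, III, I and II in PD DMSO. Complex IV had a median of 673 FPKM in OB DMSO and 291 FPKM in PD DMSO over its 12 genes of at least 5 FPKM. Its other 6 genes are isoforms of other tissues that were low or listed at 0 here. Cytochrome c itself, Cycs, averaged 111 ± 3.95 FPKM in OB DMSO and 86.0 ± 17.5 FPKM in PD DMSO (SD, n = 3 each).

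**Figure D1:**
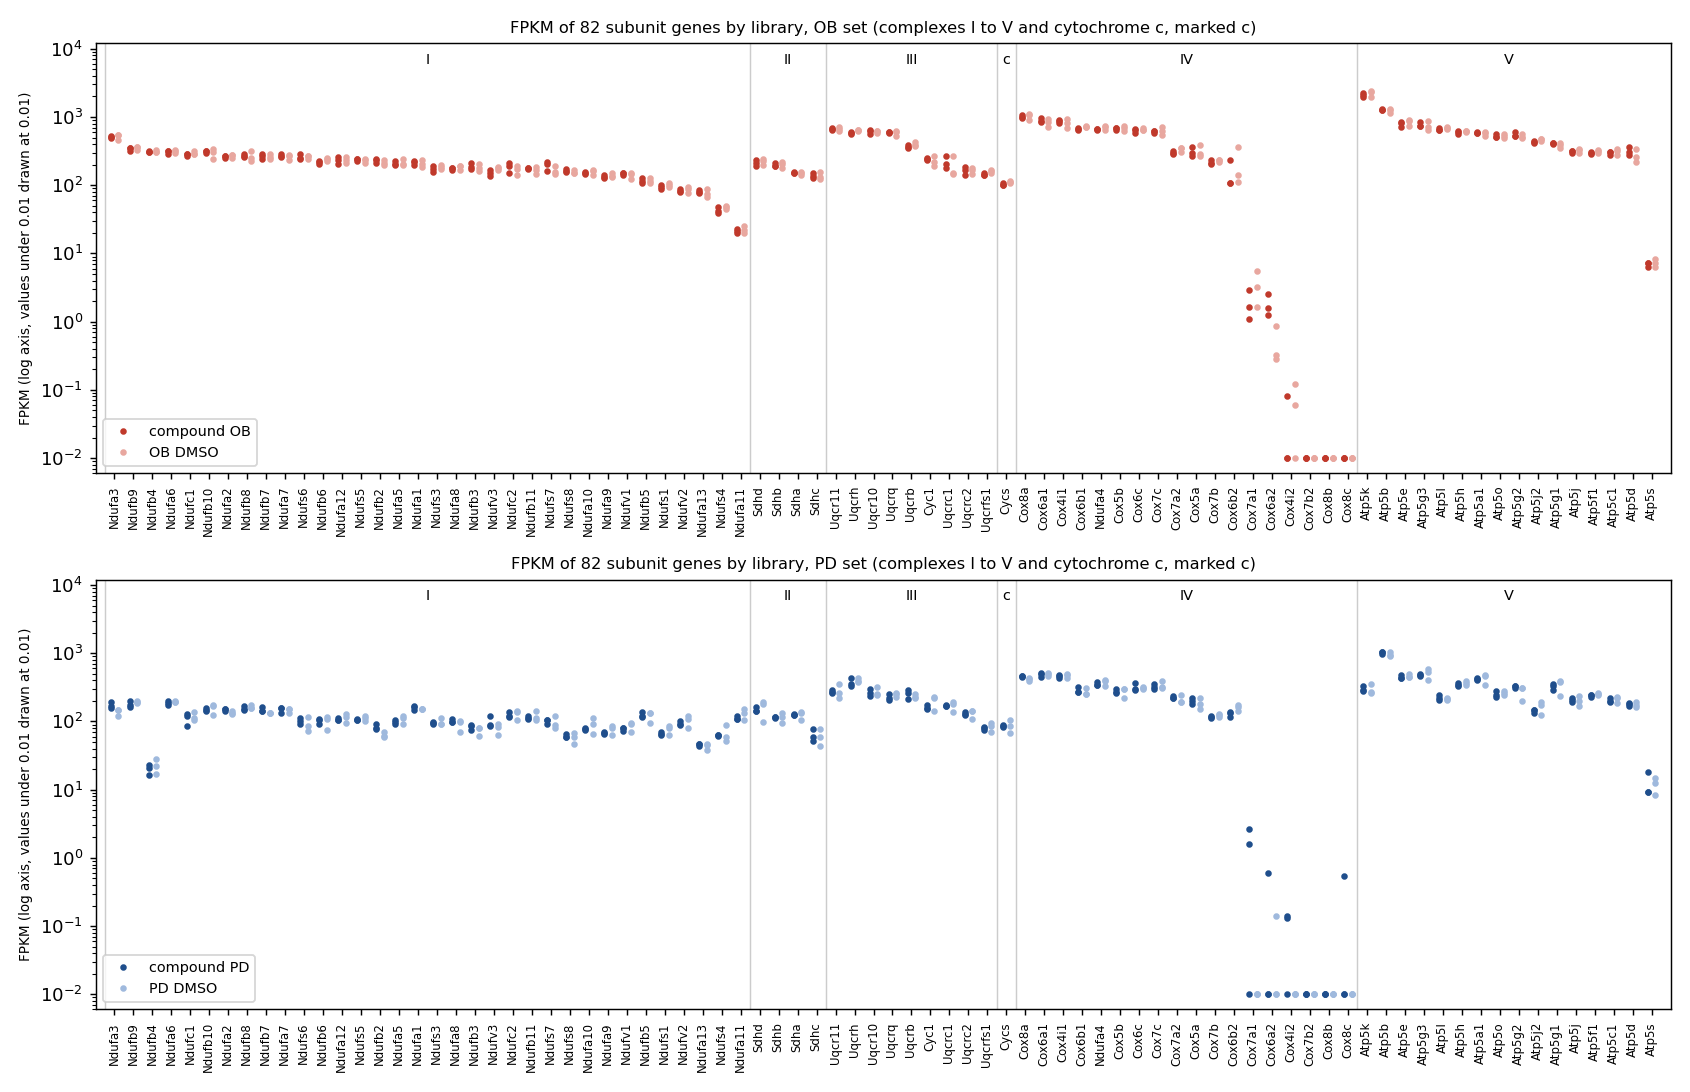
FPKM of 82 of the 83 genes in each library of the OB set (upper) and the PD set (lower), on a log axis, grouped by complex, with each compound drawn left of its DMSO group; values under 0.01 are drawn at 0.01. In complexes I to III and V every gene drawn lies above 5 FPKM, while in complex IV the isoforms Cox4i2, Cox7b2, Cox8b and Cox8c lie at or near 0. In the OB set Cox6a2 lies between 0.28 and 2.51 FPKM and Cox7a1 between 1.09 and 5.46 FPKM.

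Among the complex I genes the highest was Ndufa3, a small accessory subunit, at 516 ± 51.5 FPKM in OB DMSO, and Ndufa6, another accessory subunit, at 195 ± 5.41 FPKM in PD DMSO (SD, n = 3 each). The lowest were Ndufa11, an accessory subunit of the membrane arm, at 22.6 ± 2.77 FPKM in OB DMSO, and Ndufb4, also of the membrane arm, at 22.4 ± 5.46 FPKM in PD DMSO. These 2 genes took opposite places in the sets, with Ndufb4 at 316 ± 15.0 FPKM in OB DMSO and Ndufa11 at 130 ± 24.8 FPKM in PD DMSO. The sets list different numbers of genes and were processed separately, so a level in one set cannot be compared with a level in the other by a test.

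The 4 subunits of complex II lay close together. Sdhd, the smaller ubiquinone-binding membrane anchor, was the highest at 219 ± 20.6 FPKM in OB DMSO and 157 ± 51.6 FPKM in PD DMSO, and Sdhc, the other anchor, the lowest at 137 ± 17.4 and 60.6 ± 17.4 FPKM (SD, n = 3 each). Sdha, the flavoprotein that oxidizes succinate, measured 151 ± 7.67 FPKM in OB DMSO and 126.5 ± 17.9 FPKM in PD DMSO. Sdhb, the iron-sulfur subunit, measured 200.2 ± 19.0 FPKM in OB DMSO and 116 ± 19.4 FPKM in PD DMSO. In each set the ranges of Sdhb and Sdhd overlap over the 3 DMSO libraries.

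In complex III the highest were Uqcr11, a small accessory subunit, at 669 ± 47.8 FPKM in OB DMSO, and Uqcrh, the hinge protein next to cytochrome c1, at 402 ± 33.2 FPKM in PD DMSO (SD, n = 3 each). The catalytic Rieske iron-sulfur protein Uqcrfs1 was the lowest in both sets, at 160 ± 7.88 FPKM in OB DMSO and 84.0 ± 13.2 FPKM in PD DMSO. Cyc1 measured 224 ± 36.8 FPKM in OB DMSO and 197 ± 48.5 FPKM in PD DMSO.

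In complex V the catalytic beta subunit Atp5b measured 1241 ± 81.8 FPKM in OB DMSO and 962 ± 59.3 FPKM in PD DMSO, the highest of the 83 genes in the PD set (SD, n = 3 each). In the OB set Atp5k, the e subunit of the membrane part, was higher at 2240 ± 236 FPKM, against 292.5 ± 49.8 FPKM in PD DMSO. The lowest was Atp5s, a coupling factor grouped here by its name, at 7.29 ± 0.96 FPKM in OB DMSO and 11.8 ± 3.16 FPKM in PD DMSO. The genes of the proton-carrying c subunit, whose mature proteins are identical, followed the order Atp5g3 (747 ± 123), Atp5g2 (523 ± 36.1) and Atp5g1 (387 ± 35.9 FPKM) in OB DMSO. In PD DMSO, Atp5g3 measured 510.0 ± 92.1, Atp5g2 277 ± 64.1 and Atp5g1 332 ± 86.5 FPKM, and the ranges of Atp5g2 and Atp5g1 overlapped there.

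Complex IV is the complex with tissue-specific isoforms, and the ubiquitous forms carried nearly all of its RNA. Cox4i1, the form of subunit 4 found in most tissues, measured 817 ± 123 FPKM in OB DMSO and 470.2 ± 33.7 FPKM in PD DMSO, while the lung form Cox4i2 was at most 0.12 FPKM in OB DMSO and listed at 0 in PD DMSO. Cox6a1 measured 832 ± 119 FPKM in OB DMSO and 489 ± 26.8 FPKM in PD DMSO, against 0.28 to 0.85 and 0 to 0.14 FPKM for the heart and muscle form Cox6a2. Cox7a2 measured 333 ± 24.7 FPKM in OB DMSO and 209.7 ± 27.6 FPKM in PD DMSO. The muscle form Cox7a1 had 1.66 to 5.46 FPKM in OB DMSO and was listed at 0 in PD DMSO. Cox8a measured 1021 ± 99.0 FPKM in OB DMSO and 412 ± 21.8 FPKM in PD DMSO, while the muscle form Cox8b and the testis form Cox7b2 were listed at 0 in all 12 libraries. Cox8c, another testis form, had 0.54 FPKM in 1 library with compound PD and was listed at 0 in the others. Ndufa4 measured 699 ± 44.6 FPKM in OB DMSO and 378 ± 41.2 FPKM in PD DMSO (SD, n = 3 each).

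An exception was Cox6b2, known as the testis form of subunit 6b. It was expressed in every library, at 233, 109 and 109 FPKM with compound OB and 367, 110 and 143 FPKM in OB DMSO, and at 114, 137 and 133 FPKM with compound PD and 144, 163 and 175 FPKM in PD DMSO (replicates 1 to 3). Its ubiquitous partner Cox6b1 was above it in each library, with 674.6 ± 19.5 FPKM with compound OB and 717 ± 17.5 FPKM in OB DMSO, and 286.5 ± 25.2 FPKM with compound PD and 271 ± 33.0 FPKM in PD DMSO (SD, n = 3 each).

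The members had a lower median spread between replicates than other genes. Over the 77 members of at least 5 FPKM, the median SD of log2(FPKM + 1) over the 3 libraries was 0.0782 with compound OB and 0.119 in OB DMSO, against 0.135 and 0.181 over 7811 other genes of that level. In the PD set it was 0.0836 with compound PD and 0.223 in PD DMSO, against 0.151 and 0.285 over 8886 other genes. The members are more abundant than most of those genes, and with genes of at least 50 FPKM the medians were 0.0773 and 0.119 for 74 members in the OB set against 0.115 and 0.152 for 1970 others. At that level the PD set gave 0.0830 and 0.217 for 74 members against 0.118 and 0.259 for 2125 others. Levels above this filter were not matched, and other mitochondrial genes were not compared separately. The widest spread was that of Cox6b2 in both groups of the OB set, Atp5s with compound PD and Sdhd in PD DMSO.

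Compound OB at 100 µM was compared with its own DMSO to see whether it moved the respiratory genes as a whole, by complex or singly. No member passed the test. Limma on log2(FPKM + 1) called 0 of 79 members tested and 0 of 10073 genes (0%), and the smallest adjusted p among members was 0.9998. At an unadjusted p under 0.05 there were 2 members, Ndufv3 and Cox6a2, against 372 genes (3.69% of those tested). The groups did not overlap for 7 of 79 members, against 8.74% of all genes. For 1 member the compound lay higher (5.31% of all genes) and for 6 lower (3.42%). The other 4 genes (Cox4i2, Cox7b2, Cox8b and Cox8c) fell short of a mean of 1 FPKM.

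Taken as a group the subunits lay beside their controls. The median log2 fold change over the 79 members was −0.02, against 0.03 over all genes tested, with 31 members higher and 48 lower, while 58.7% of all genes were higher. By complex the median was −0.02 for complex I (14 of 35 higher), 0.00 for II (2 of 4), 0.01 for III (5 of 9), −0.05 for IV (3 of 14) and −0.04 for V (7 of 16), and Cycs had −0.11. Signs this near 0 depended on scaling, as complex III lay at −0.03 with median-ratio scaling and complex V at 0.01 with quantile normalization. The members made up 4.20%, 4.11% and 4.20% of the FPKM summed over shared names with compound OB, against 4.36%, 4.13% and 4.28% in OB DMSO. These ranges overlap, but within pairs of the same replicate number, which are taken up below, the share was lower with the compound in 3 of 3. The same held for complexes I, II, IV and V and for Cycs, and for complex III in 2 of 3 pairs, and no test was made of these shares. The lowest share in each group was that of replicate 2. In OB DMSO replicate 2 the median member lay 0.10 below the group mean on the log2 scale, and the median of all 7888 genes of at least 5 FPKM lay 0.07 below it. Without this library the members' median was −0.06 with 16 of 79 higher and 0 called, against a median of 0.00 over all genes, of which 50.7% were higher. Of all 10092 genes tested without it, 0 were called.

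**Figure D2:**
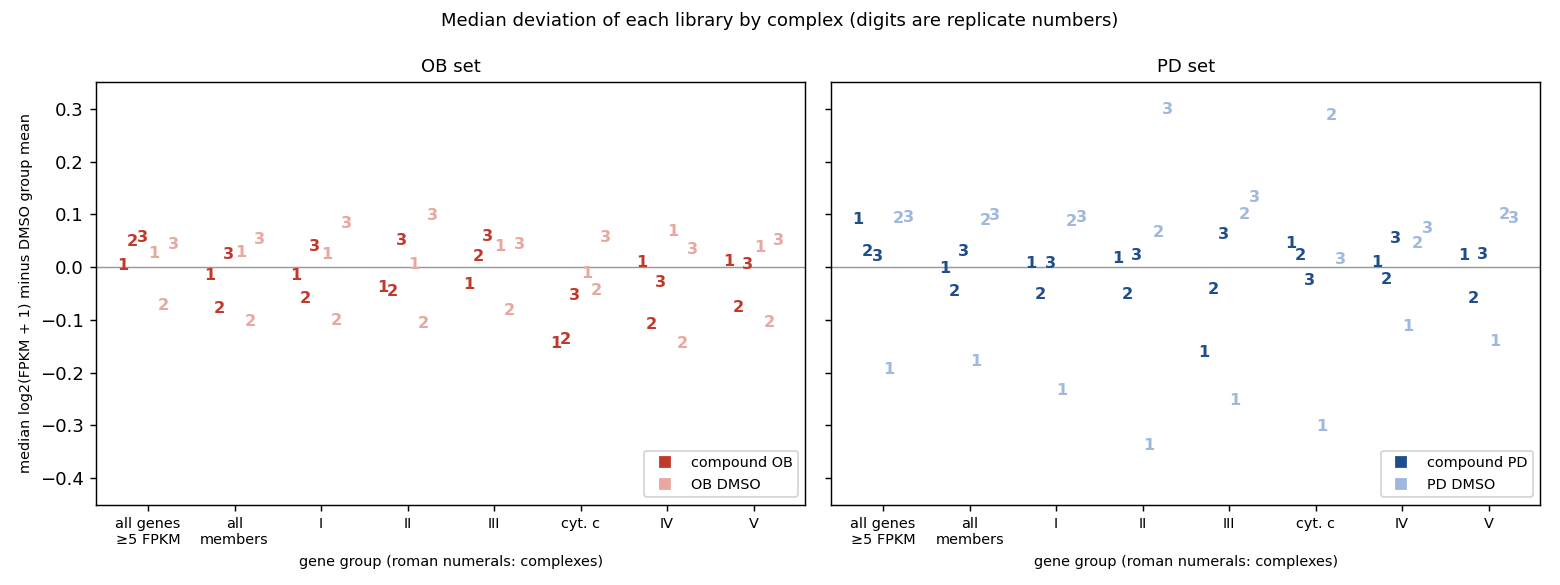
For each library, the median over the genes of each group of log2(FPKM + 1) minus that gene's DMSO mean, for all genes of at least 5 FPKM, all 77 members of that level and each complex; digits are replicate numbers, dark for the compound and light for DMSO, and each set is relative to its own DMSO. The compound libraries lie between the DMSO replicates in complexes I, II, IV and V of both sets, OB DMSO replicate 2 lies lowest of its set for all members, and PD DMSO replicate 1 lies lowest of its set in every complex.

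The error allows a statement of size. Of the 77 members of at least 5 FPKM, 76 had a 95% interval of the log2 fold change (limma, not adjusted for the number of genes) within −1 and 1, and 72 within −0.5 and 0.5. The exception was Cox6b2, with an interval of −1.53 to 0.84. Estimates of 76 of the 77 lay within 0.25 of 0 on the log2 scale. A change of 2-fold or more thus lay outside the interval of each of these genes but Cox6b2.

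In complex I the highest estimate was that of Ndufs7, a core subunit carrying the last iron-sulfur cluster before ubiquinone. It measured 159, 207 and 215 FPKM with compound OB and 154, 145 and 188 FPKM in OB DMSO (log2 0.25, SE 0.15, 95% interval −0.11 to 0.61). Replicate 1 with the compound lay inside the DMSO range, and the groups overlapped, but each compound library lay above the DMSO library of its number. The lowest was Ndufv3 (chr17:31520115-31531326), an accessory subunit beside the NADH-binding site, with 152, 137 and 164 FPKM with compound OB and 179, 170 and 184 FPKM in OB DMSO (log2 −0.23, SE 0.09, unadjusted p = 0.0419 and adjusted p = 0.9998, limma). All 3 of its compound libraries lay below all 3 DMSO libraries, but the difference did not pass the adjusted test. The core subunit Ndufv1, which binds NADH, measured 148 ± 4.73 FPKM with compound OB and 140 ± 14.0 FPKM in OB DMSO (SD, n = 3 each).

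Complex II showed the smallest estimates. Sdhc measured 150, 129 and 136 FPKM with compound OB and 157, 123 and 131 FPKM in OB DMSO, a log2 fold change of 0.02 (SE 0.12). Sdhd measured 188, 211 and 231 FPKM with compound OB and 197, 223 and 238 FPKM in OB DMSO, a log2 fold change of −0.06 (SE 0.11). Sdha averaged 151 ± 3.20 FPKM with the compound and 151 ± 7.67 FPKM in OB DMSO (SD, n = 3 each). In all of these the groups overlapped, and the sign for both anchors depended on the library left out or the scaling.

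Among members of at least 5 FPKM, complex III held the widest interval after Cox6b2. Uqcrc1 (chr9:108936648-108949641), a core protein of the matrix side, measured 267, 202 and 178 FPKM with compound OB and 268, 146 and 150 FPKM in OB DMSO (log2 0.23, SE 0.26). Replicate 1 was the highest in both groups. The same was seen for other members, such as Atp5d, Cox5a, Cox6b2, Cox4i1 and Cox8a, though not for all. Uqcrfs1 (chr13:30540312-30545316) was the lowest, with 150, 141 and 142 FPKM with compound OB and 165, 151 and 163 FPKM in OB DMSO (log2 −0.15, SE 0.08, interval −0.33 to 0.04). Its groups did not overlap, nor did those of Uqcrh, at 587 ± 22.6 FPKM with the compound and 635 ± 9.58 FPKM in OB DMSO (SD, n = 3 each).

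Cycs (chr6:50562563-50566569), whose CRE is shown above, measured 100.4, 101 and 107 FPKM with compound OB and 110.2, 107.7 and 115 FPKM in OB DMSO (log2 −0.11, SE 0.08, interval −0.30 to 0.07). The compound libraries lay below the DMSO libraries by a margin smaller than 1 FPKM between the nearest replicates. Ndufa11, with a CRE and an NRF1 motif, measured 21.4 ± 1.65 FPKM with compound OB and 22.6 ± 2.77 FPKM in OB DMSO (SD, n = 3 each). Of the other genes with the CRE letters, Ndufb2 lay at log2 0.08, Ndufa10 at −0.05 and Uqcrfs1 at −0.15.

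In complex IV, Cox6a1 had the highest estimate among genes of at least 5 FPKM, with 959, 842 and 876 FPKM with compound OB and 946, 709 and 841 FPKM in OB DMSO (log2 0.11, SE 0.12). Cox6b2 (chr7:4751792-4753094), given above by library, had the lowest at log2 −0.35 (SE 0.50), and replicate 1 was the highest in both groups. Without OB DMSO replicate 1 its estimate was 0.17. Cox6a2 was singled out after its values were seen. It measured 2.51, 1.24 and 1.57 FPKM with compound OB and 0.28, 0.32 and 0.85 FPKM in OB DMSO (log2 0.90, SE 0.23, unadjusted p = 0.00601 and adjusted p = 0.9998, limma). It reached the mean of 1 FPKM only through the compound group, so its difference was favoured by the filter.

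In complex V, Atp5d, the delta subunit of the central stalk, measured 362, 307 and 274 FPKM with compound OB and 341, 217 and 257 FPKM in OB DMSO (log2 0.23, SE 0.18). Atp5j2, the f subunit of the membrane part, measured 432, 415 and 447 FPKM with compound OB and 475, 442 and 483 FPKM in OB DMSO (log2 −0.11, SE 0.07). The groups of both overlapped, but each compound library lay above the DMSO library of its number for Atp5d and below it for Atp5j2. Atp5b averaged 1288 ± 28.3 FPKM with compound OB and 1241 ± 81.8 FPKM in OB DMSO (SD, n = 3 each), with an interval of −0.11 to 0.23.

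**Figure D3:**
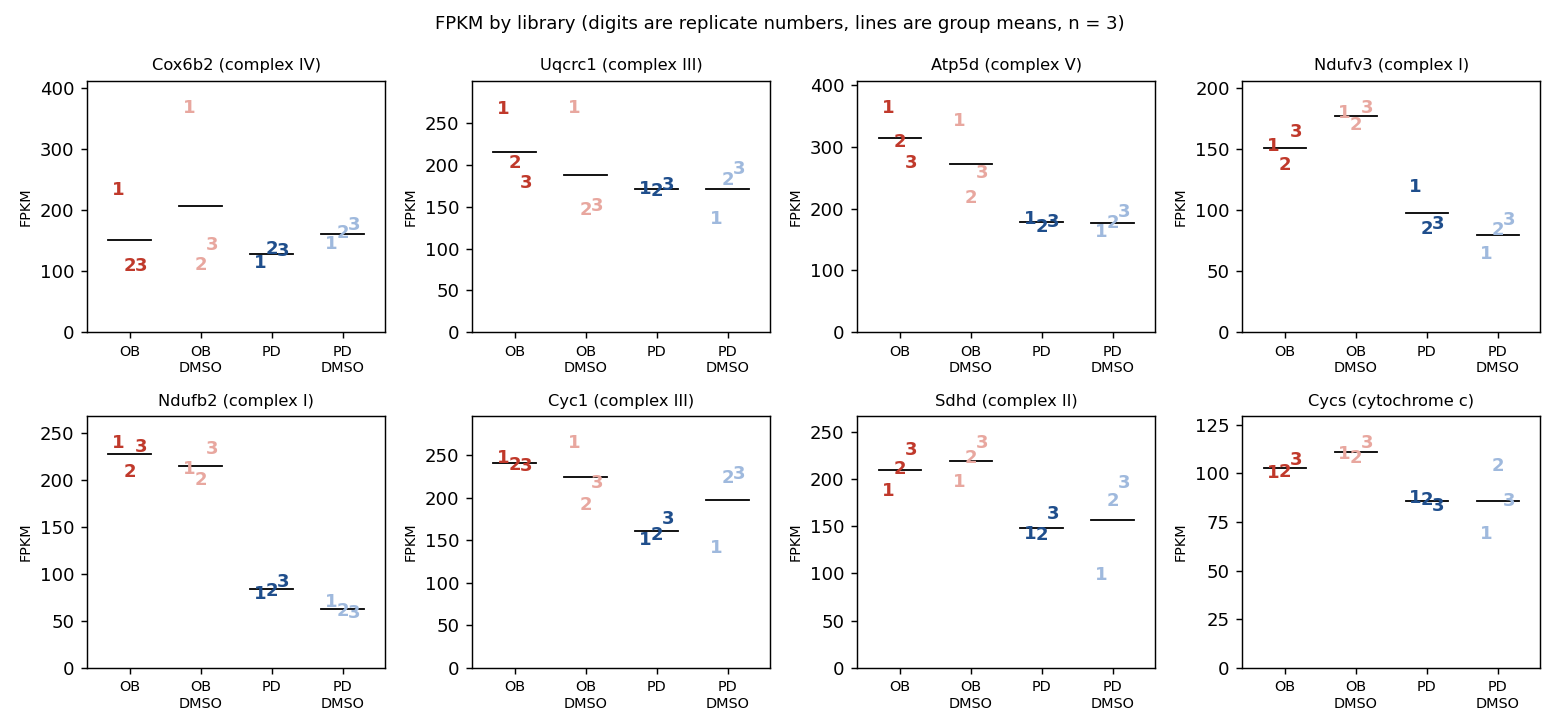
FPKM of 8 members in each library, with axes from 0; digits are replicate numbers and lines are group means (n = 3). In the OB set replicate 1 of both groups is the highest for Cox6b2, Uqcrc1 and Atp5d, and in the PD set DMSO replicate 1 is the lowest DMSO library for Cyc1, Sdhd and Cycs.

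Replicate numbers were taken to pair the libraries of the OB set, in which same-numbered libraries deviated together. This was clear for replicate 1 and weaker for replicates 2 and 3, which also deviated together across numbers. With the replicate number as a block, 0 of 79 members were called, against 7 of 10073 genes (0.0695%), and 14 members had an unadjusted p under 0.05 (14.9% of all genes did). The smallest blocked adjusted p among members of at least 5 FPKM was 0.218. With the block the intervals of 77 of 77 members lay within −1 and 1 and 76 within −0.5 and 0.5, and that of Cox6b2 was −0.64 to −0.05 (SE 0.12, unadjusted p = 0.0277 and adjusted p = 0.305, limma). Blocked unadjusted p-values were also under 0.05 for Ndufs7 (0.0367), Ndufv3 (0.00426), Uqcrc1 (0.0443), Uqcrfs1 (0.0242), Atp5d (0.0474) and Atp5j2 (0.0311, limma). The blocked SE was 0.09 for Ndufs7, Uqcrc1 and Atp5d, with adjusted p-values of 0.314, 0.323 and 0.331 (limma). For Sdhc, Sdhd and Cox6a1 the blocked unadjusted p was above 0.05. Blocked fits without a pair, added after the data were seen, called 3 of 78 members without replicate 1 (11.4% of all genes), 1 of 79 without replicate 2 (1.45%) and 0 of 79 without replicate 3 (0.0297%).

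Compound PD at 3 nM likewise left no member past the threshold. Limma called 0 of 77 members and 4 of 11891 genes (0.0336%), and the smallest adjusted p among members was 0.361, that of Ndufb2. At an unadjusted p under 0.05 there was 1 member, Ndufb2, against 1270 genes (10.7% of those tested). The groups did not overlap for 6 of 77 members, against 16.8% of all genes. For 5 members the compound lay higher (13.1% of all genes) and for 1 lower (3.72%). The 77 tested members are those of at least 5 FPKM, and the other 6 are the isoforms of complex IV named above.

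The median log2 fold change over the 77 members was −0.01, against 0.06 over all genes, with 37 higher and 40 lower, while 59.1% of all genes were higher. By complex it was −0.04 for complex I (15 of 35 higher), 0.01 for II (3 of 4), −0.02 for III (4 of 9), 0.01 for IV (7 of 12) and −0.01 for V (7 of 16), and 0.01 for Cycs. With median-ratio scaling, which sets the typical gene to no change, the members' median was −0.10 with 16 of 77 higher, and complexes II and IV lay at −0.08 each and Cycs at −0.07. With quantile normalization complex IV lay at −0.01. The members' share of summed FPKM was 2.54%, 2.52% and 2.58% with compound PD, against 2.55%, 2.71% and 2.70% in PD DMSO, where replicate 1 held the lowest share.

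PD DMSO replicate 1 stood apart from the other DMSO libraries of its set. The median of all 8963 genes of at least 5 FPKM lay 0.19 below the group mean on the log2 scale, that of the members 0.18 below and that of complex II 0.34 below. DMSO replicates 2 and 3 lay 0.09 above the mean each over all genes, and 0.09 and 0.10 above over the members. It also held the highest erythroid marker sum, 6154 FPKM, against 3306 and 3264 FPKM in DMSO replicates 2 and 3. Without it the median over members was −0.11 with 21 of 77 higher and 0 called, against a median of −0.02 over all genes, of which 47.0% were higher. Of all 11945 genes tested without this library, 168 were called, against 4 of 11891 with all libraries. The compound libraries differed less among themselves, with medians of 0.00, −0.05 and 0.03 relative to the DMSO mean.

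All 77 members had 95% intervals within −1 and 1 on the log2 scale, and 56 within −0.5 and 0.5. The lowest bound was −0.72 for Cyc1 and the highest 0.75 for Ndufb2. A change of 2-fold or more thus lay outside the interval of each tested member. These intervals are wider than in the OB set, with a median SE of 0.16 against 0.09.

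In complex I the highest estimate was that of Ndufb2 (chr6:39592565-39599843), a small accessory subunit of the membrane arm whose promoter window holds the CRE letters. It measured 78.7, 81.4 and 91.3 FPKM with compound PD and 70.0, 60.2 and 58.2 FPKM in PD DMSO (log2 0.41, SE 0.15, interval 0.07 to 0.75, unadjusted p = 0.0230 and adjusted p = 0.361, limma). All 3 compound libraries lay above all 3 DMSO libraries. Ndufs1, the largest core subunit, was the lowest with 63.8, 64.5 and 70.3 FPKM with compound PD and 62.8, 86.8 and 79.6 FPKM in PD DMSO (log2 −0.19, SE 0.17), and the groups overlapped. Ndufa3 measured 173 ± 17.3 FPKM with compound PD and 139 ± 14.7 FPKM in PD DMSO, with no overlap (SD, n = 3 each). The groups also did not overlap for Ndufa2 and Ndufb7, both higher with compound PD. Of the other genes whose windows hold the CRE letters, Ndufa11 lay at log2 −0.19, Ndufa10 at −0.17 and Cycs at 0.01. Uqcrfs1, also with these letters, averaged 79.4 FPKM with compound PD and 84.0 FPKM in PD DMSO.

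In complex II, Sdhc measured 78.1, 51.1 and 59.2 FPKM with compound PD and 44.0, 59.0 and 78.7 FPKM in PD DMSO (log2 0.07, SE 0.24). Sdhd measured 142, 141 and 163 FPKM with compound PD and 98.4, 177 and 196 FPKM in PD DMSO (log2 −0.02, SE 0.25). The compound libraries of Sdhd all fell between DMSO replicate 1 and DMSO replicates 2 and 3. Sdha averaged 126 ± 2.34 FPKM with the compound and 126.5 ± 17.9 FPKM in PD DMSO, and Sdhb 116 ± 2.45 and 116 ± 19.4 FPKM (SD, n = 3 each).

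In complex III, Uqcrb, an accessory subunit near the ubiquinone site, measured 259, 214 and 294 FPKM with compound PD and 221, 228 and 256 FPKM in PD DMSO (log2 0.11, SE 0.16). Cyc1 (chr15:76343513-76346260), which passes electrons to cytochrome c, measured 150.1, 157 and 175 FPKM with compound PD and 141, 223 and 228 FPKM in PD DMSO (log2 −0.27, SE 0.20, interval −0.72 to 0.19). DMSO replicate 1 lay below all compound libraries and the other DMSO libraries above them. Without single libraries the estimate of Cyc1 ranged from −0.49 to −0.15. Cycs measured 87.5, 86.1 and 83.2 FPKM with compound PD and 68.6, 103.7 and 85.6 FPKM in PD DMSO (log2 0.01, SE 0.18).

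In complex IV, Cox8a, a small membrane subunit, measured 463, 469 and 451 FPKM with compound PD and 387, 421 and 428 FPKM in PD DMSO (log2 0.16, SE 0.12, interval −0.10 to 0.43). Its groups did not overlap. Cox6b2 was the only member whose compound PD libraries all lay below the DMSO libraries (log2 −0.32, SE 0.15, interval −0.66 to 0.02, unadjusted p = 0.0589 and adjusted p = 0.489, limma). Cox4i1 averaged 459 ± 17.96 FPKM with compound PD and 470.2 ± 33.7 FPKM in PD DMSO (SD, n = 3 each).

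In complex V, Atp5g2 measured 333, 307 and 336 FPKM with compound PD and 203, 314 and 313 FPKM in PD DMSO (log2 0.26, SE 0.19, interval −0.16 to 0.68). Only DMSO replicate 1 was apart, and the groups overlapped. Without single libraries the estimate of Atp5g2 ranged from 0.05 to 0.37. Atp5g1 measured 324 ± 28.8 FPKM with compound PD and 332 ± 86.5 FPKM in PD DMSO, and Atp5g3 480.4 ± 19.96 and 510.0 ± 92.1 FPKM (SD, n = 3 each). Atp5j2 was the lowest estimate of the complex, with 148, 133 and 145 FPKM with compound PD and 126, 192 and 172 FPKM in PD DMSO (log2 −0.18, SE 0.18). Atp5b averaged 1017 ± 39.3 FPKM with compound PD and 962 ± 59.3 FPKM in PD DMSO.

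**Figure D4:**
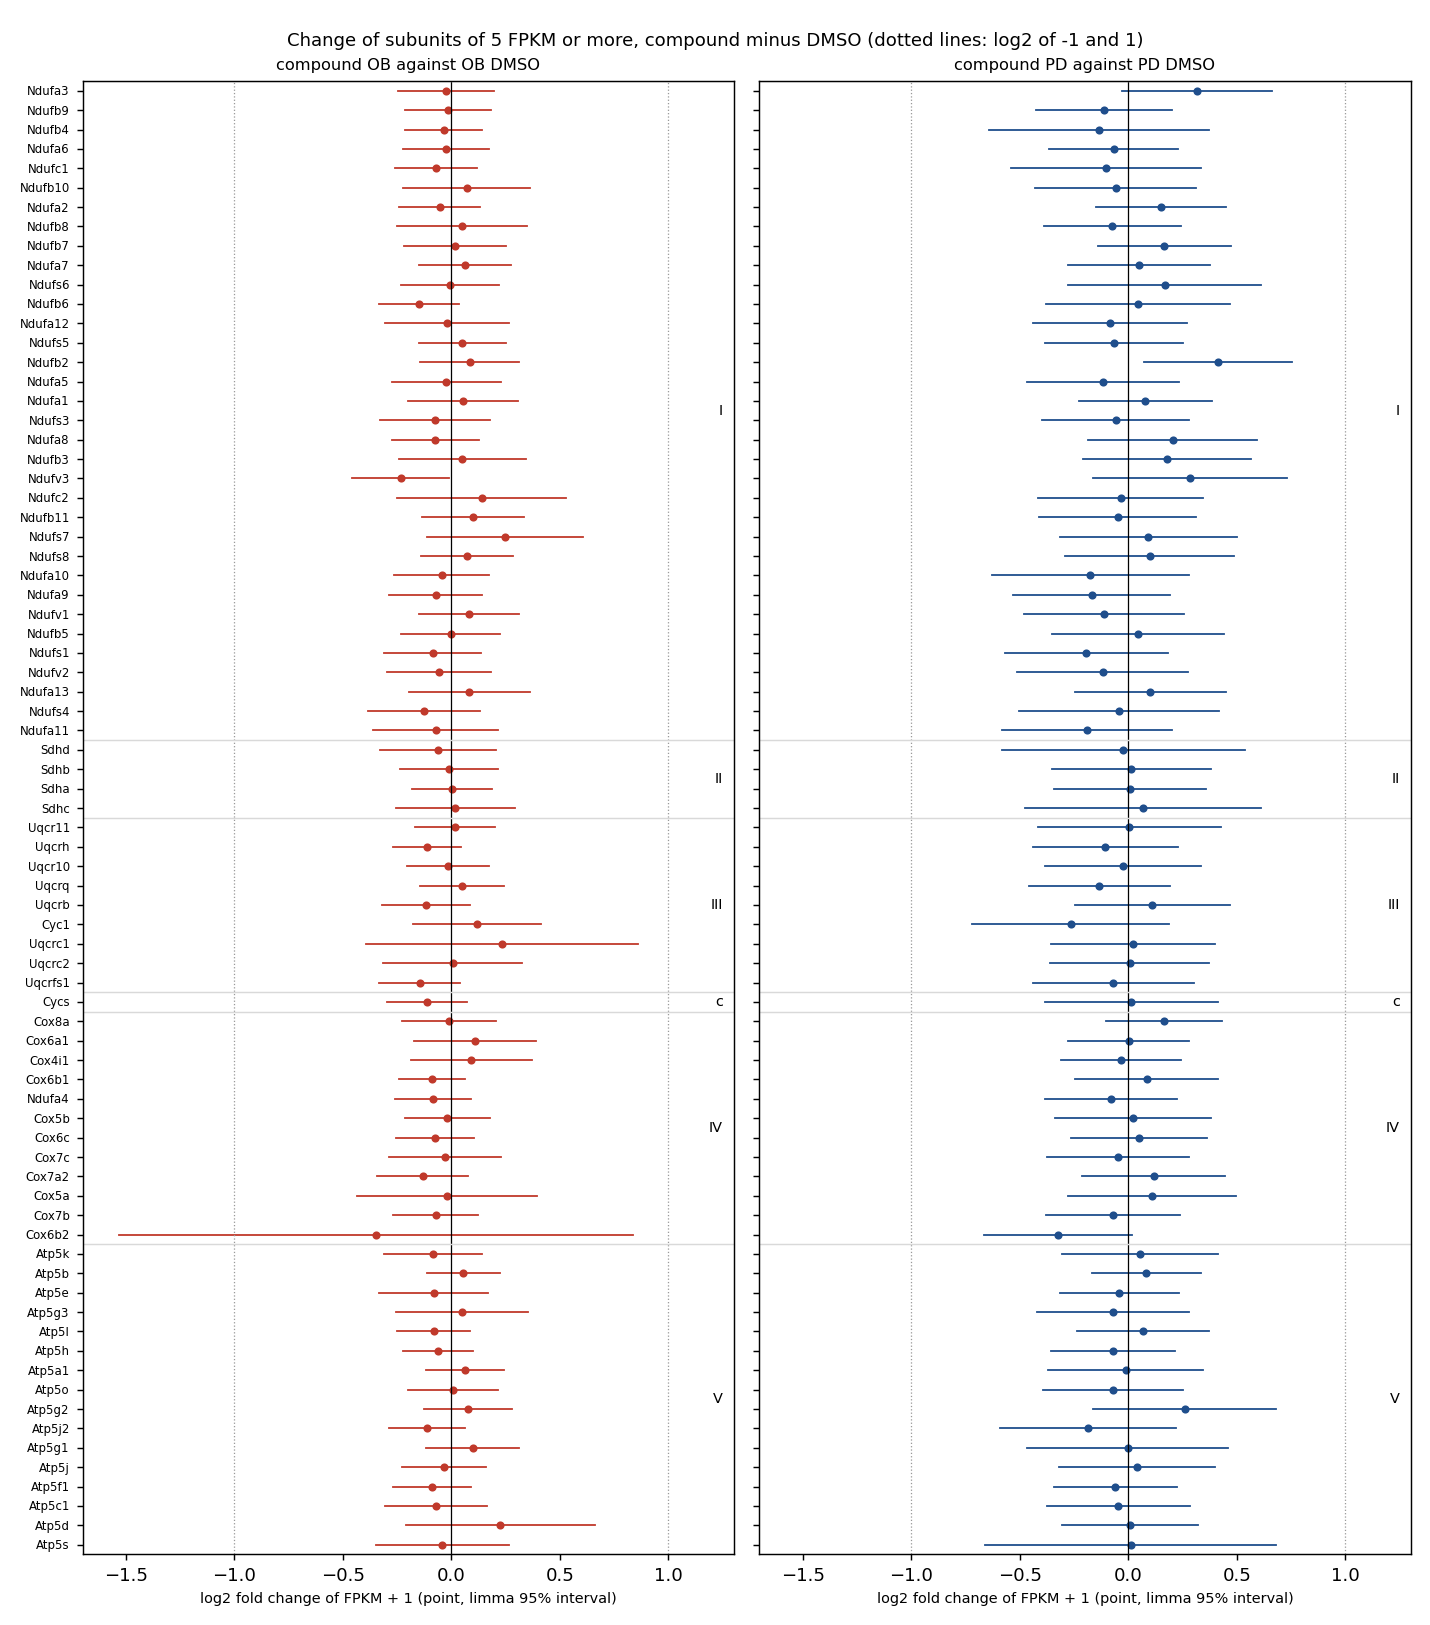
Log2 fold change of FPKM + 1, compound minus DMSO, of 76 of the 77 members of at least 5 FPKM, ordered by complex, for compound OB (left) and compound PD (right); points are limma estimates and lines 95% intervals that are not adjusted for the number of genes. All intervals drawn lie within −1 and 1 except that of Cox6b2 with compound OB, and 0 of the estimates passed the adjusted test.

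The effects of both compounds were also compared in one fit of all 12 libraries, as the effect of compound PD minus that of compound OB. Compound, dose and set go together here, so a difference between compounds cannot be told apart from one between doses or sets. Limma called 0 of 78 members and 0 of 10314 genes (0%), with 2 members at an unadjusted p under 0.05, Cox7a1 and Ndufv3, against 763 genes (7.40%). Both are named here after their values were seen. The median difference was 0.01 with 42 of 78 higher, against 0.02 over all genes, of which 53.1% were higher. Ndufv3 had a difference of 0.52 (SE 0.23, interval 0.02 to 1.01, adjusted p = 0.642, limma), from a log2 fold change of 0.28 with compound PD and −0.23 with compound OB. Cox7a1 had a difference of 1.66 (SE 0.60, adjusted p = 0.523, limma) at very low levels, with 2.62, 1.61 and 0 FPKM with compound PD and 0 in all PD DMSO libraries, and 2.93, 1.09 and 1.65 FPKM with compound OB and 3.22, 1.66 and 5.46 FPKM in OB DMSO. It reached the mean of 1 FPKM through the OB libraries alone, so its difference was favoured by the filter. Of the 77 members of at least 5 FPKM, 75 had an interval of the difference within −1 and 1, and the others were Cox6b2 and Ndufv3.

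The subunits encoded by mitochondrial DNA could be read only in the PD set, because names with a hyphen hold displaced values in the OB set. Of the 13 tested, 0 were called, 8 were higher and 5 lower with compound PD, and their median log2 fold change was 0.05. mt-Co1, the catalytic subunit of complex IV, measured 3610 ± 261 FPKM with compound PD and 3666 ± 228 FPKM in PD DMSO, and mt-Cytb of complex III 959 ± 17.8 and 933 ± 103 FPKM (SD, n = 3 each). Singled out after their values were seen were 3 short genes at an unadjusted p under 0.05, against 10.7% of all genes tested. mt-Atp8 measured 3895, 4418 and 5725 FPKM with compound PD and 3230, 2950 and 3543 FPKM in PD DMSO (log2 0.51, SE 0.15, adjusted p = 0.248, limma). mt-Nd4l measured 257, 536 and 451 FPKM with compound PD and 275, 153 and 78.9 FPKM in PD DMSO (log2 1.40, SE 0.44). mt-Nd3 measured 772, 395 and 566 FPKM with compound PD and 922, 1128 and 704 FPKM in PD DMSO (log2 −0.69, SE 0.25). The groups of mt-Atp8 did not overlap (16.8% of all genes), while those of mt-Nd4l and mt-Nd3 did. mt-Atp8 overlaps mt-Atp6 and mt-Nd4l overlaps mt-Nd4 in mitochondrial DNA, so their values are uncertain.

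Other genes of the pathway were followed through lists. Among complex I assembly factors, 0 of 14 tested were called with compound OB (median −0.01, 6 higher) and 0 of 16 with compound PD (median −0.02, 8 higher). Among assembly factors of complexes II to V, 0 of 34 were called with compound OB (median 0.02, 20 higher) and 0 of 37 with compound PD (median 0.02, 21 higher). The list's lowest estimate was Pet117, which helps to assemble complex IV, with 0, 1.47 and 0 FPKM with compound PD and 3.38, 6.59 and 7.45 FPKM in PD DMSO (log2 −2.28, SE 0.42, adjusted p = 0.121, limma). The groups did not overlap (16.8% of all genes), but the gene reached the mean of 1 FPKM only through PD DMSO, so its difference was favoured by the filter. The gene was called without PD DMSO replicate 1, where 168 of 11945 genes were called. Citric acid cycle enzymes were listed together with the pyruvate dehydrogenase genes Pdha1, Pdhb, Dlat and Pdhx and with Pcx, pyruvate carboxylase. This list had 0 of 19 called with either compound, with a median of 0.02 each. The 1 gene of this list at an unadjusted p under 0.05 was Pcx with compound OB (3.69% of all genes), named after its values were seen. It measured 21.2, 25.02 and 21.3 FPKM with compound OB and 15.8, 16.5 and 18.9 FPKM in OB DMSO (log2 0.38, SE 0.12, unadjusted p = 0.0144 and adjusted p = 0.9998, limma). Mitochondrial ribosomal proteins had 0 of 77 called with compound OB (median −0.01, 37 higher) and 0 of 78 with compound PD (median −0.03, 33 higher). Other genes linked to the chain but outside the naming rule, such as Ndufab1, Usmg5 and Atpif1, had 0 of 7 called with compound OB (median 0.00, 3 higher) and 0 of 5 with compound PD (median −0.13, 0 higher). Not all of them encode subunits. Singled out after its values were seen, Usmg5, a small subunit of the ATP synthase, measured 788, 758 and 810 FPKM with compound OB and 911, 868 and 969 FPKM in OB DMSO (log2 −0.22, SE 0.07, unadjusted p = 0.0178 and adjusted p = 0.9998, limma). Its groups did not overlap (8.74% of all genes), nor did those of 2010107E04Rik of the same list, which was also lower with compound OB. In the PD set Usmg5 averaged 282.5 ± 45.3 FPKM with compound PD and 285 ± 30.5 FPKM in PD DMSO (SD, n = 3 each).

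Of the regulators of respiratory genes, 0 of 17 tested were called with either compound, with a median log2 fold change of 0.05 with compound OB (12 higher) and 0.00 with compound PD (9 higher). At an unadjusted p under 0.05 there were 2 with compound OB, Myc and Hcfc1, named after their values were seen, and 0 with compound PD. Of all genes tested, 3.69% reached this with compound OB and 10.7% with compound PD. Myc, a transcription factor of cell growth, measured 98.5, 111 and 93.5 FPKM with compound OB and 85.3, 72.2 and 71.8 FPKM in OB DMSO (log2 0.40, SE 0.11, unadjusted p = 0.00901 and adjusted p = 0.9998, limma). Hcfc1, a transcriptional coregulator, measured 48.7, 61.8 and 48.0 FPKM with compound OB and 45.8, 37.8 and 38.2 FPKM in OB DMSO (log2 0.37, SE 0.14, unadjusted p = 0.0304 and adjusted p = 0.9998, limma). The groups of neither overlapped, which held for 8.74% of all genes. With compound PD, Myc averaged 61.2 ± 2.63 FPKM against 66.9 ± 22.4 FPKM in PD DMSO, and Hcfc1 64.6 ± 3.01 FPKM against 58.7 ± 8.80 FPKM in PD DMSO (SD, n = 3 each). Nrf1, the factor of the motif above, measured 25.3 ± 1.73 FPKM with compound OB and 23.6 ± 2.41 FPKM in OB DMSO, and 36.3 ± 1.02 FPKM with compound PD and 33.3 ± 3.14 FPKM in PD DMSO (SD, n = 3 each). Gabpa, the DNA-binding subunit of GABP, measured 20.8 ± 1.71 FPKM with compound OB and 21.5 ± 3.01 FPKM in OB DMSO, and 23.9 ± 0.495 FPKM with compound PD and 24.1 ± 3.78 FPKM in PD DMSO. Tfam, which packages mitochondrial DNA, measured 22.8 ± 2.37 FPKM with compound OB and 22.4 ± 2.40 FPKM in OB DMSO, and 31.8 ± 2.85 FPKM with compound PD and 36.1 ± 3.41 FPKM in PD DMSO. The groups of Nrf1, Gabpa and Tfam overlapped in both sets. Of the PGC-1 coactivators, Ppargc1a was at most 0.05 FPKM in every library. Pprc1 measured 26.5 ± 3.07 FPKM with compound OB and 20.6 ± 6.36 FPKM in OB DMSO (log2 0.38, SE 0.21), and 28.0 ± 9.01 FPKM with compound PD and 32.7 ± 13.5 FPKM in PD DMSO (log2 −0.17, SE 0.34). Ppargc1b measured 3.34 ± 0.338 FPKM with compound OB and 2.46 ± 0.513 FPKM in OB DMSO, and 1.81 ± 0.674 FPKM with compound PD and 1.57 ± 0.781 FPKM in PD DMSO. Esrra, a nuclear receptor that acts with them, measured 10.9 ± 0.736 FPKM with compound OB and 10.8 ± 2.11 FPKM in OB DMSO, and 14.5 ± 2.95 FPKM with compound PD and 12.97 ± 4.21 FPKM in PD DMSO.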

How the data were processed

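RNA from 12 libraries was analysed, and 2 chromatin samples are not analysed here. The authors deposited FPKM values per gene and library. The submitters' processing notes name STAR as the aligner and mm10 as the build. The sources used here do not give the program behind the FPKM values, the annotation or the use of strand, so genes with near-identical or overlapping copies have uncertain values. The OB set lists 24054 entries and the PD set 54752. In each set 27 date-like names were left out. In the OB set 428 names split at a hyphen, which held displaced values, or repeated were left out, and in the PD set 165 repeated entries (20 repeated names, Atp5o among them, were kept by their only entry above 0). Depth is unknown, so no counting interval is given.

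Compound and matching DMSO libraries were compared by limma 3.58.1 (R 4.3.3, statmod 1.5.0) on log2(FPKM + 1), which understates changes of low genes, with mean-variance trend and robust moderation, for genes averaging at least 1 FPKM. P-values are two-sided, Benjamini-Hochberg adjusted over all genes tested, with a threshold of 0.05. The difference used 4 group means over 12 libraries. The fit was tested on simulated data. Python 3.11.15 was used with numpy 2.4.6, pandas 2.3.3 and matplotlib 3.10.9. Sequences and coordinates are RefSeq's for GRCm38.p6; 81 members matched by symbol and 2 by synonym.

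Same-numbered libraries of the OB set deviated together (correlations of deviations from group means over 10073 genes 0.83, 0.43 and 0.65), so the numbers were taken to pair them. Across numbers, compound OB replicate 3 with DMSO replicate 2 gave 0.41, and compound OB replicate 2 with DMSO replicate 3 gave 0.33. Unlike numbers with replicate 1 on either side gave −0.71 to −0.54. The pairing is thus clear for replicate 1 and weaker for replicates 2 and 3. In the PD set same-numbered libraries did not deviate together over 11891 genes (−0.005, −0.03 and −0.02), so the numbers were not taken to pair them. Replicate 1 of both PD groups did hold the highest megakaryocyte and mast cell marker sums, so a pairing is not excluded. Members and lists were chosen with earlier results of these data known. Named genes are the highest and lowest estimate of each complex among members of at least 5 FPKM, the highest and lowest levels, and a short list of isoforms and regulators. Alternatives were other pseudocounts, filters, scalings, the replicate block, plain moderation and leaving out each library. The values of 1 member are not reported here, though it stays in all counts and medians.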

Additional observations from a re-analysis of the deposited data

How the results depend on the processing

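The count of members called was 0 of those tested for compound OB, compound PD and their difference under pseudocounts of 0.1 and 5 FPKM, no filter on low values, a mean of at least 5 FPKM, median-ratio scaling, quantile normalization, plain moderation, and without each library in turn. Over all genes the count did change without single libraries. It was 14 of 10025 for compound OB without OB DMSO replicate 1. Without PD DMSO replicate 1 it was 168 of 11945 for compound PD and 15 of 10312 for the difference. With the replicate block the count of members called was also 0 in the OB set, where the numbers were taken to pair the libraries. It was 0 too in the PD set, where the numbers were not taken to pair them. There the blocked fit called 42 genes (0.353%), against 4 without it, Pet117 (adjusted p = 0.0313, limma) among the 42. When a pair was left out of the blocked fit, an alternative chosen after seeing the data, the OB count was 3 of 78 without replicate 1 (Ndufs7 and Uqcrc1 at log2 0.35 each, Ndufv3 at −0.23), 3.85% against 11.4% of all genes, 1 of 79 without replicate 2 (Cox6b2 at −0.52), 1.27% against 1.45%, and 0 without replicate 3, and the cause was not tested.

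The members' median log2 fold change ranged from −0.057 to 0.008 without single libraries for compound OB, from −0.115 to 0.043 for compound PD and from −0.075 to 0.059 for the difference. Estimates near 0 changed sign. For compound OB, Sdhc was −0.017 with median-ratio scaling and −0.022 with quantile normalization, ranged from −0.052 to 0.118 without single libraries, and with the block was −0.0025 without replicate 2 and −0.0030 without replicate 3. Sdhd (−0.14 to 0.015), Cox6a1 (−0.0018 to 0.21) and Cox6b2 (−0.71 to 0.17) also changed sign without a library. For compound PD, Sdhc was −0.017 with median-ratio scaling, −0.138 to 0.273 without single libraries and −0.30 with the block without replicate 1. Sdhd ranged from −0.33 to 0.165 without single libraries, and with the block it was 0.13 without replicate 2 and 0.097 without replicate 3. Cox6a2 has no value with a mean of at least 5 FPKM or without compound OB replicate 1, because it then failed the filter. What depth limits cannot be given, because FPKM carry no counts.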

Other observations

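Levels of the same subunits differed between the sets. The ratio of OB DMSO to PD DMSO had a median of 1.78 over the 77 members of at least 5 FPKM, 72 of them above 1, against 0.982 over 7073 other genes. The extremes were Ndufb4 at 14.1 and Ndufa11 at 0.174. The order of the members was alike in both sets (Spearman correlation 0.87 across 77 genes, which share their library and are not independent replicates). Markers of other cells differed between the same groups, with neutrophil markers summing to 148 to 591 FPKM in OB DMSO and 11835 to 17819 FPKM in PD DMSO, and megakaryocyte markers to 504 to 1448 and 2400 to 4773 FPKM. The sets also list different numbers of names, 24054 and 54752. The part of the cell content and of the name lists in the ratio was not tested, and neither can be told apart from other differences between the sets.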
